A study of Mus musculus with 2 samples.

Results

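The interferon regulatory factors (IRFs) were followed in DP thymocytes, immature T cells that carry both CD4 and CD8 and make up most of the thymus. They were taken by symbol from the deposited expression table, as *Irf1* to *Irf5* and *Irf7* to *Irf9*, which are 8 of its 21041 genes. The table holds 1 mRNA-seq library of WT mice and 1 library of *Cxxc1*-deficient mice, on the C57BL/6 background. The *Cxxc1*-deficient mice were *Cxxc1* fl/fl carrying hCD2-Cre, and WT stands for *Cxxc1* fl/fl mice without Cre, so both groups carry *loxP* sites around exons 4 and 5 of *Cxxc1*. Cre driven by hCD2 is active from an early thymocyte stage and in other immune cells too. The genotype label of the *Cxxc1*-deficient sample reads Cxxc1+/-, which differs from the genotype in the methods. The methods give an age of 3 to 4 weeks for mice where nothing else is stated, and how many mice went into each library is not given in the sources used here. The question put to the data was how each IRF gene, and the interferon pathway around it, was expressed with and without Cxxc1, a subunit of the Setd1 complex that places H3K4me3 at promoters.

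IRFs are transcription factors that share an amino-terminal DNA-binding domain with a repeat of tryptophans and bind GAAA-containing response elements. IRF3 and IRF7 switch on interferon genes after a virus is sensed, IRF9 joins STAT2 to carry the signal of the type I interferon receptor, and IRF1 and IRF2 compete at shared sites as activator and repressor. In the thymus, IRF1 is known for its part in the development of CD8 T cells. IRF4 and IRF8 are better known from activated lymphocytes, B cells, dendritic cells and macrophages and IRF5 from macrophages.

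Each genotype is represented by 1 library and no difference could be checked in a replicate, so no p-value is given and each ratio compares the 2 libraries rather than the genotypes. The values behave as normalized to the length of the gene, so levels of different genes were set side by side. They still rose with length, from a WT median of 22 for genes over 600 and up to 1000 bases to 37 for those between 2000 and 3000 bases and 43 for those between 3000 and 5000. The size of a read could be read off short genes, whose values fall on whole multiples: 1 read on 1 kb of transcript was worth 4.05 in WT against 4.70 in *Cxxc1*-deficient cells. By these sizes the WT library holds approximately 1400000 reads on genes and the *Cxxc1*-deficient library 730000. All 95% intervals are exact (Clopper-Pearson for ratios, Poisson for levels), rest on these approximate reads and cover counting error only. Olfactory receptor genes, which thymocytes are not known to use, had a median of 22 in WT against 24 in *Cxxc1*-deficient cells, with 95th percentiles of 54 and 57, and served as the background level. Their median length was 957 bases, shorter than any IRF gene here, so this is a background of shorter genes. The 11 markers of DP thymocytes summed to 42221 in WT against 13552 in *Cxxc1*-deficient cells, led by *Rag1* (20778 and 5058) and *Tcf7* (5826 and 4461), and all 11 were lower, 9 of them past 2-fold. Of all genes with a mean of 500 and over, where 9 of these markers lie, 96.3% were lower and 84.1% past 2-fold. The targeted gene had 91 in WT against 50 in *Cxxc1*-deficient cells, a value over the whole gene and not over the deleted exons alone. The latter value lies under the 95th percentile of olfactory receptor genes in that library (57). By qPCR the paper reports nearly no *Cxxc1* mRNA in DP cells of these mice, and by western blot the deletion of the protein. Among 15 Y-linked genes, 0 had a value above 0 in WT against 7 in *Cxxc1*-deficient cells, and *Xist* had 2419 and 1021. The makeup of the libraries by sex thus differed, and its part in the results was not tested.

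In WT DP thymocytes the leading IRF gene was *Irf2*, with a value of 189. It was followed by *Irf3* with 89, *Irf9* with 72 and *Irf1* with 55. *Irf4* and *Irf8* both had 36, *Irf7* had 33 and *Irf5* had 28. The interval of *Irf2*, from 156.4 to 227.1, lay above that of *Irf3*, from 65.5 to 120.2, whereas every other pair of neighbours in this order had overlapping intervals. *Irf2* exceeded all 1122 olfactory receptor genes and *Irf3* did so too. *Irf9* was reached by 2 of them and *Irf1* by 55, or 4.9%. The interval of *Irf1* in WT, from 36.8 to 79.0, includes the 95th percentile of 54. The values of *Irf4* and *Irf8* were reached by 24.0% of the olfactory receptor genes, that of *Irf7* by 30.3% and that of *Irf5* by 38.9%, so these 4 genes could not be told from the background in WT cells.

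In *Cxxc1*-deficient DP thymocytes *Irf2* led again, with 199. The next places went to *Irf9* with 111 and *Irf1* with 95, whose interval from 68.4 to 127.4 lay above that of the fourth gene, *Irf4*, with 43. *Irf3* had 39, *Irf5* and *Irf8* had 36 each and *Irf7* had 21. From *Irf4* downwards all neighbours had overlapping intervals. All 5 of these genes were at a level that many olfactory receptor genes reached, from 18.5% for *Irf4* to 52.6% for *Irf7*. *Irf3* thus stood in the second place in WT and at rank 5 in *Cxxc1*-deficient cells, where 25.8% of the olfactory receptor genes had at least its value. Summed over the family, the values were 538 in WT against 580 in *Cxxc1*-deficient cells. *Irf2* made up 35.1% of the WT sum and 34.3% of the other, *Irf1* 10.2% and 16.4%, *Irf9* 13.4% and 19.1%, and *Irf3* 16.5% and 6.72%.

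**Figure D1:**
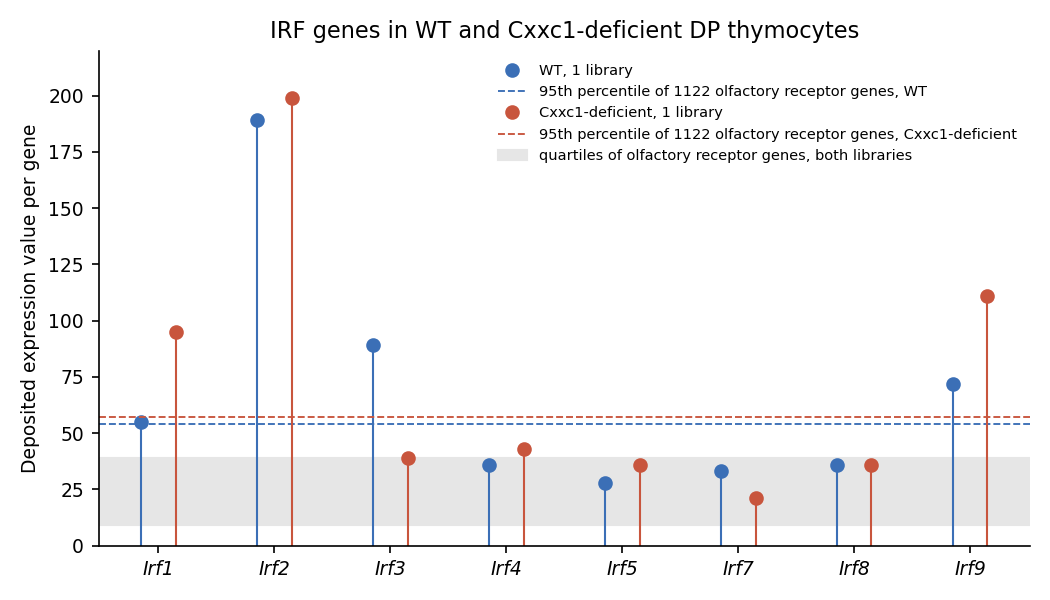
Deposited expression value (per gene, normalized to length, no unit named) of the 8 IRF genes in the WT library (blue) and the *Cxxc1*-deficient library (red). Dashed lines mark the 95th percentile of 1122 olfactory receptor genes in each library (54 and 57) and the grey band their quartiles. Only *Irf1*, *Irf2* and *Irf9* lie above the line of their library in both, *Irf3* does so in WT only, and the other 4 genes in neither. *Irf1* in WT, at 55, is close to the line, which its interval includes.

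Of the 8 IRF genes, 2 had a lower value in *Cxxc1*-deficient cells, 5 a higher value and 1 an equal value. Among the 20125 genes listed above 0 in either library, 59.9% were lower and 37.2% were higher. Setting both libraries to the same total multiplies every ratio by 1.58 and turns this split to 28.5% lower and 71.4% higher, with 1 IRF gene (*Irf3*) lower and 7 higher. Directions are given as deposited, and a gene or list between a ratio of 1 and a 1.58-fold reduction, such as *Irf7*, turns with that scaling. The median log2 ratio was 0.17 over the IRF genes and -0.20 over all genes. At a threshold of 2-fold, 1 IRF gene was lower, against 17.4% of all genes, and 0 were higher, against 5.89%. The share of genes that were lower depends on the level of the gene in these libraries, so each IRF gene was also read against the genes of its own level class, by the mean of both values. Of the 13996 genes with a mean under 50, 48.5% were higher in *Cxxc1*-deficient cells. This share was 16.1% of the 3657 genes with a mean from 50 to under 100 and 5.17% of the 1605 genes from 100 to under 200.

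*Irf1*, the activator of the family that interferon-gamma induces, occupies bases 53583516 to 53591876 of chromosome 11 in mm9, on the plus strand. It had a value of 55 in WT against 95 in *Cxxc1*-deficient DP thymocytes, with a ratio of 1.73 and a 95% counting interval from 1.05 to 2.86. This rests on approximately 29 and 43 reads. Within its level class, where the median log2 ratio was -0.53, only 46 of 3657 genes (1.26%) had a ratio at least as high. Relative to most genes of its level *Irf1* was thus higher. Scaling a whole library keeps this rank among the same genes, but the class itself was formed on the deposited values.

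*Irf9*, the DNA-binding partner of STAT2, lies on chromosome 14 from 56222408 to 56228867 on the plus strand. It had 72 in WT against 111 in *Cxxc1*-deficient cells, which gave a ratio of 1.54 (interval 1.06 to 2.23). In the same level class, 95 genes (2.60%) had a ratio at least as high. The interval assumes the longest transcript of the consensus coding set, and with the shortest one it ran from 0.998 to 2.33. The annotated exons of *Irf9* share 319 bases on the same strand with *Rnf31*, a gene with 43 in WT against 46 in *Cxxc1*-deficient cells, so reads of this stretch cannot be assigned to either gene.

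*Irf2*, the repressor that competes with IRF1, occupies bases 47825099 to 47932812 of chromosome 8, plus strand. Its values of 189 in WT against 199 in *Cxxc1*-deficient cells gave a ratio of 1.05 with an interval from 0.798 to 1.38, on approximately 116 and 105 reads. The interval leaves room for a value at most 1.25-fold lower or 1.38-fold higher. In its level class the median log2 ratio was -1.0, which lies outside this interval, and 62 of 1605 genes (3.86%) had a ratio at least as high. The most abundant IRF gene thus had near-equal deposited values and a ratio above that of most genes of its level. Relative to *Irf2*, *Irf1* went from 0.291 in WT to 0.477 in *Cxxc1*-deficient cells and *Irf9* from 0.381 to 0.558. These quotients within a library do not depend on how the libraries were scaled, but they carry the counting error of both genes. No interval was taken for them, so whether they differed beyond counting error was not tested.

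*Irf3*, which is present in resting cells and acts on interferon genes once phosphorylated, lies on chromosome 7 from 52253018 to 52258218 on the plus strand. It was the only IRF gene past 2-fold, with 89 in WT against 39 in *Cxxc1*-deficient cells. The gene was 2.28-fold lower with an interval from 1.28 to 4.25, on approximately 45 and 17 reads. In its level class 447 of 3657 genes (12.2%) had a ratio at least as low, and the class median log2 ratio of -0.53 lies inside the interval of the gene. *Irf3* was thus lower together with most genes of its level, of which 20.0% were at least 2-fold lower. Its exons share 88 bases with *Bcl2l12* on the opposite strand, a gene that had 41 in WT against 18 in *Cxxc1*-deficient cells and was 2.28-fold lower. Both values of *Bcl2l12* lie under the 95th percentiles of the olfactory receptor genes (54 and 57), and no interval was taken for it. The quotient of *Irf1* to *Irf3* was 0.618 in WT against 2.44 in *Cxxc1*-deficient cells, and that of *Irf9* to *Irf3* was 0.809 and 2.85. No interval was taken for these quotients either.

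**Figure D2:**
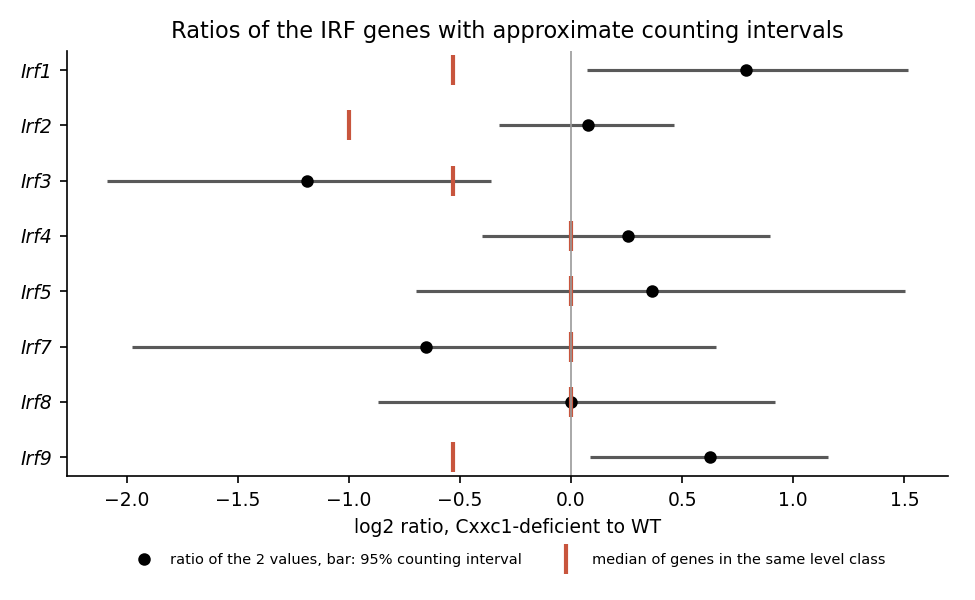
Log2 ratio of the *Cxxc1*-deficient to the WT value of each IRF gene (points) with its approximate 95% counting interval (bars), and the median log2 ratio of all genes in the same level class (red ticks). The bars of *Irf1* and *Irf9* lie above 0 and above the tick of their class, that of *Irf2* includes 0 and lies above its tick, and that of *Irf3* lies below 0 and includes its tick.

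*Irf4*, *Irf5*, *Irf7* and *Irf8*, the 4 genes at the background, had intervals that include a ratio of 1. They lie on chromosome 13 from 30841095 to 30858796 (*Irf4*), on chromosome 6 from 29476625 to 29491869 (*Irf5*), on chromosome 7 from 148448605 to 148452380 (*Irf7*) and on chromosome 8 from 123260258 to 123280594 (*Irf8*). The ratio was 1.19 for *Irf4*, a factor induced by antigen receptor signalling, with an interval from 0.758 to 1.86. It was 1.29 for *Irf5*, with an interval from 0.617 to 2.83, but 1073 exonic bases of *Irf5* overlap *Tnpo3* on the opposite strand, which had 135 in WT against 76 in *Cxxc1*-deficient cells. *Irf7*, the inducible partner of IRF3, had a ratio of 0.636 with an interval from 0.254 to 1.57, and *Irf8*, the factor of dendritic cells and macrophages, had 1.00 with an interval from 0.548 to 1.89. The exons of *Irf7* share 124 bases with *Phrf1* on the opposite strand (131 and 73). At these depths, differences of these 4 genes were not detectable. Markers of the cells in which IRF4, IRF5 and IRF8 are best known were also near the background. Of the 8 B cell markers, 7 in the WT library and 8 in the other were at or under the 95th percentile of the olfactory receptor genes, and the list summed to 267 and 211, led by *Cd79b* (74 and 43). Of the 17 macrophage and dendritic cell markers 16 were so in each library, with sums of 623 and 571 and the integrin gene *Itgam* (101 and 107) as the exception. None of these 25 markers was listed at 0. The NK cell list summed to 245 and 192 over 6 genes, the mature single-positive list to 348 and 298 over 5, the thymic epithelium list to 215 and 167 over 7 with *Krt8* at 4 and 0, and the erythroid list to 105 and 87 over 5 with *Hba-a1* at 0 in both. The part of other cells in the IRF values was not tested, and in such bulk RNA fewer cells of a type and less RNA per cell cannot be told apart.

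**Figure D3:**
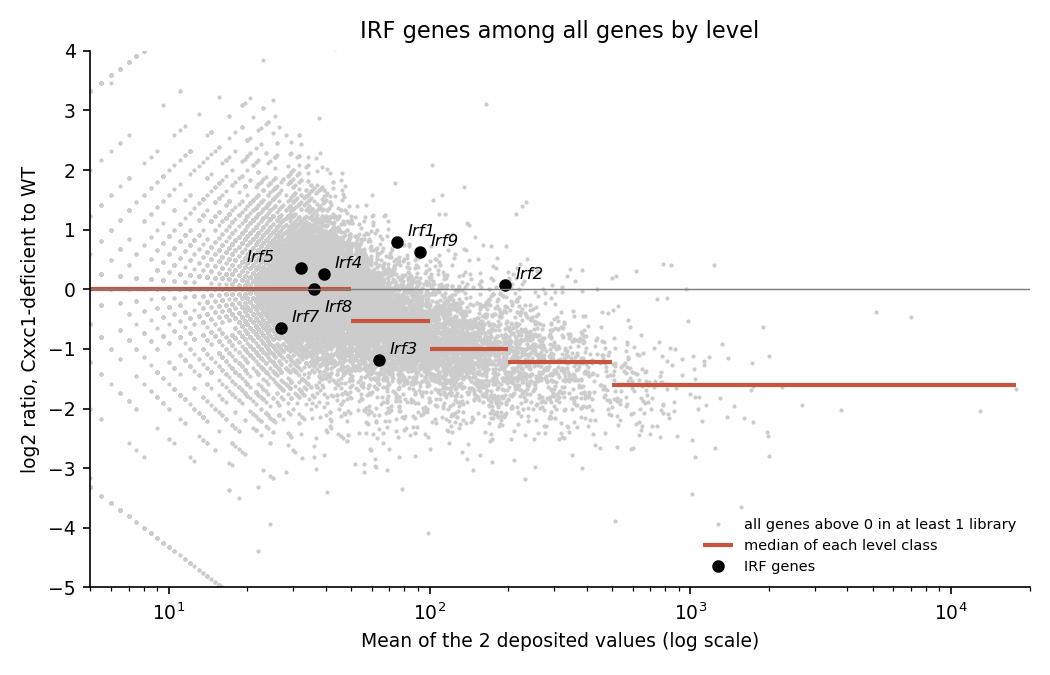
Log2 ratio of the *Cxxc1*-deficient to the WT value against the mean of both values (log scale) for all genes above 0 in at least 1 library (grey), with the median of each level class (red lines) and the IRF genes (black); genes of the lowest means and a few extreme ratios lie outside the axes. *Irf1*, *Irf9* and *Irf2* lie on the upper edge of the genes of their level, *Irf3* among the bulk of genes of its level, and the other 4 in the cloud of low genes around 0.

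The stretches upstream of *Irf1* and *Irf2* are shown because these antagonists hold, in the windows searched, the letters of response elements of the interferon pathway itself. The sequences are the 250 bases before a RefSeq transcription start (RefSeq, GRCm38.p6), placed on NCBIM37, the assembly of mm9, by an exact match found once for each, and both are on the plus strand. Capitals mark the letters of a gamma-activated site (GAS, TTCNNNGAA, the site of STAT dimers) or of an interferon-stimulated response element (ISRE, GAAANNGAAA), searched on both strands.
*Irf1*, chr11:53583266-53583515: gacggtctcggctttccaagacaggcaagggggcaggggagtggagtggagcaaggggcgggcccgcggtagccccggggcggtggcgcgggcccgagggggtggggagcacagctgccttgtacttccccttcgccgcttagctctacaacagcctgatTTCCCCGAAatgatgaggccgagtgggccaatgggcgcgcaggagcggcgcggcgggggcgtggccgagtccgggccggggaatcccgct
*Irf2*, chr8:47824849-47825098: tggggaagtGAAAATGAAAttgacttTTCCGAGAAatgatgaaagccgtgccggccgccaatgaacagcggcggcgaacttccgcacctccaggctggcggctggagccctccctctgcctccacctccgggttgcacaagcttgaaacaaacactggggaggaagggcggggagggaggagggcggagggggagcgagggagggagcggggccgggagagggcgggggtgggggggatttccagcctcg

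The *Irf1* stretch holds a GAS match from 90 to 82 bases before the start. In *Irf2* an ISRE match runs from 241 to 232 and a GAS match from 224 to 216 bases before the start, with no overlap between them. Promoters of all 8 IRF genes were found in the RefSeq table, 11 in all. Of these 11 stretches 1 held the ISRE letters, against 2.98% of all 32851 promoters, and 3 held the GAS letters, against 7.02%. The third was *Irf8*, with matches from 171 to 163 and from 153 to 145 bases before the start, a gene that nevertheless stood at the background in both libraries. *Irf3* and *Irf9*, which differed in opposite directions, held neither set of letters in these windows. Both *Irf9* windows, from 56222572 to 56222821 and from 56223166 to 56223415, lie inside the annotated gene, which begins at 56222408. The bases before that annotated start of *Irf9* were not searched. CpG dinucleotides, which the CXXC domain of Cxxc1 binds when unmethylated, numbered 25 in the printed *Irf1* stretch and 35 before its second start, 17 in *Irf2* and 16 in *Irf3*, with a median of 6 over all promoters and 10 over those of genes in the deposited table. *Irf9* had 7 and 1 before its starts. The numbers before the starts of the others were 11 in *Irf4*, 25 in *Irf5*, 3 in *Irf7*, and 29 and 8 in *Irf8*. In DP thymocytes the paper found Cxxc1 signal enriched at CpG islands, but only a small part of its binding sites there. Whether the CpG numbers bear on Cxxc1 binding was not tested.

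The pathway around the IRFs was described with 7 lists of 114 genes, of which 111 had a value above 0 in at least 1 library. In *Cxxc1*-deficient cells 66 of them (59.5%) were lower, which is close to the 59.9% of all genes, and 45 higher. Past 2-fold 16 (14.4%) were lower, against 17.4% of all genes, and 12 (10.8%) higher, against 5.89%. Of these 5 of the lower and 6 of the higher genes encode interferons, at background levels. The counts of each list move with the level of its genes, so they were also set against the level classes, a reading added after the values were seen. Past 2-fold lower were 50.1% of the genes with a mean from 100 to under 200 and 65.9% of those from 200 to under 500. The median log2 ratio was -1.22 in the latter class and -1.61 from 500 upwards.

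Upstream of IRF9, the 10 genes of interferon receptors and JAK-STAT signalling had 9 lower and 1 higher value, with 3 past 2-fold lower. The median log2 ratio of this list was -0.73, against -0.20 over all genes, but 0.27 when the libraries were set to the same median over the more abundant genes. Of these 10 genes 3 had a ratio above the median of their level class, and the median difference from it was -0.14 on the log2 scale. *Ifngr1*, the ligand-binding chain of the interferon-gamma receptor, had 846 in WT against 224 in *Cxxc1*-deficient cells and was 3.78-fold lower (interval 3.03 to 4.72). The kinase genes *Jak1* (494 and 215) and *Jak2* (200 and 91) were lower by 2.30-fold and 2.20-fold. All 3 were near what their level gives, since 31.1% of the genes of its class had a ratio at most as low as that of *Ifngr1*, 51.4% for *Jak1* and 38.6% for *Jak2*. *Stat2*, the partner of IRF9, was chosen after its values were seen. *Stat2* had 127 in WT against 72 in *Cxxc1*-deficient cells, which gave a ratio of 0.567 (interval 0.414 to 0.759). In its level class 29.7% of genes had a ratio at most as low, and the class median ratio of 0.691 lies inside its interval. The *Irf9* value was thus higher and the *Stat2* value lower in *Cxxc1*-deficient cells, the latter near what its level gives.

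Among the 19 sensors and adaptors that act upstream of IRF3, IRF5 and IRF7, 10 were lower and 9 higher, with a median log2 ratio of -0.02, and 13 were above the median of their level class. *Tbk1*, the kinase that phosphorylates IRF3, had 186 in WT against 71 in *Cxxc1*-deficient cells and was the only gene of this list past 2-fold, at 2.62-fold lower and an interval from 1.85 to 3.72. In its level class 21.9% of genes had a ratio at most as low. Its relative *Ikbke* had 58 and 75, with a ratio of 1.29 and an interval from 0.848 to 1.95. *Traf6*, a ubiquitin ligase of Toll-like receptor signalling, had the highest mean of the list, with 308 and 277, a ratio of 0.899 and an interval from 0.783 to 1.03, and 5.26% of the genes of its class had a ratio at least as high. *Irak1* (97 and 54) had a ratio of 0.557. The values of *Ticam1* (64 and 63) and *Ddx58* (71 and 55) had intervals that include a ratio of 1.

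The genes of the interferons themselves were at the background. All 19 were at or under the 95th percentile of the olfactory receptor genes in both libraries, and 3 were listed at 0 in both. Of the other 16, 6 were lower and 10 higher, on at most 11 reads in any one of those named here. The highest means belonged to *Ifnk* (35 and 52), *Ifna4* (44 and 29) and *Ifng* (30 and 43), whose intervals include a ratio of 1, as do those of *Ifnb1* (11 and 24), *Ifna13* (25 and 6) and *Ifna12* (5 and 24). The alpha genes are near-identical copies, so uniquely mapped reads cover them only in part.

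Downstream, the 40 interferon-stimulated genes had 21 lower and 19 higher values in *Cxxc1*-deficient cells, and the median log2 ratio was -0.02. Many were near the background, and 27 in the WT library and 29 in the other were at or under the 95th percentile of the olfactory receptor genes. Past 2-fold 2 (5.0%) were lower, against 17.4% of all genes, and 5 of the 40 higher, against 5.89%. All of these lie in the class under 50, where 9.75% of genes were past 2-fold lower and 8.22% higher. Of the 14 genes that averaged at least 50, 0 were past it. These 14, of which 8 were lower and 6 higher with a median log2 ratio of -0.02, lie in the classes whose medians were -0.53 (12 genes) and -1.0 (2 genes). Their ratio was above the median of its class in 12 of 14, by a median of 0.53 on the log2 scale. Relative to genes of their level most of the more abundant interferon-stimulated genes were thus higher, but this was not particular to the list. At a mean of at least 50, so were 5 of 7 sensors, 5 of 7 MHC class I genes and 3 of 4 cofactors. This held for 2 of 7 receptor and JAK-STAT genes and 2 of 5 negative regulators. Over all 40 interferon-stimulated genes 25 were above their class median, by a median of 0.18. *Trim25*, the ubiquitin ligase that acts on RIG-I, had 217 in WT against 115 in *Cxxc1*-deficient cells, which gave a ratio of 0.530 (interval 0.431 to 0.652). *Ifit2* (100 and 55) was 1.82-fold lower and *Trim21* (107 and 71) had a ratio of 0.664, and both intervals lay below 1. *Trim30a* (88 and 95) and *Eif2ak2* (91 and 69), which encodes the RNA-dependent kinase PKR, had intervals that include 1. *Ifi27* had 132 and 104.

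The 11 genes of MHC class I antigen processing, several of which IRF1 activates, had 9 lower and 2 higher values and a median log2 ratio of -0.42. Past 2-fold 2 (18.2%) were lower, close to the share of all genes, and 6 of the 11 were above the median of their level class. *B2m*, the light chain of MHC class I, had 964 in WT against 965 in *Cxxc1*-deficient cells, which gave a ratio of 1.00 (interval 0.814 to 1.23), and 3.66% of the genes of its class had a ratio at least as high. The immunoproteasome gene *Psmb8* had 348 and 138, which gave a ratio of 0.397 (interval 0.280 to 0.555), and *Psme1* had 315 and 183, a ratio of 0.581. For *Psmb8* 42.5% of the genes of its class had a ratio at most as low. Of the 10 partners and cofactors of IRFs 7 were lower and 3 higher, with a median log2 ratio of -0.35, and past 2-fold 2 were lower and 1 higher, shares near those of all genes for the lower counts. Of the 10, 6 were above the median of their level class. *Irf2bp2*, a corepressor that binds IRF2, had 393 in WT against 204 in *Cxxc1*-deficient cells, which gave a ratio of 0.519 (interval 0.438 to 0.617), and 30.2% of the genes of its class had a ratio at least as high. *Def6*, whose product binds IRF4, had 239 and 114 and was 2.10-fold lower, and the acetyltransferase gene *Crebbp* had 398 and 308, a ratio of 0.774. Of the 5 negative regulators 4 were lower, 1 of them past 2-fold, with a median log2 ratio of -0.81. Their means lie from 50 to under 200, where 82.6% (under 100) and 94.7% (from 100) of all genes were lower, and 2 of the 5 were above the median of their level class. *Pias1* (163 and 87) had a ratio of 0.534 with an interval below 1, and *Socs1* (120 and 70) a ratio of 0.583 with an interval from 0.310 to 1.05.

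**Figure D4:**
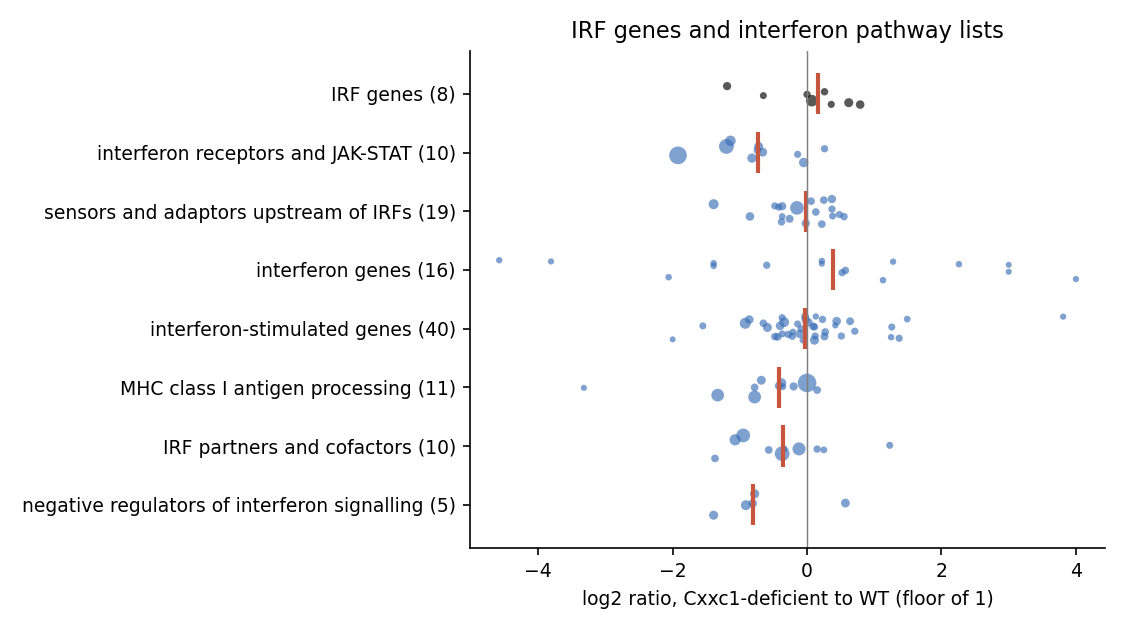
Log2 ratio of the *Cxxc1*-deficient to the WT value, each raised to at least 1, for the 8 IRF genes (black) and the genes of 7 interferon pathway lists (blue, number of genes in parentheses); larger points have a higher mean value, vertical positions within a row are arbitrary and red lines mark medians. Large points lie to the left in the receptor and JAK-STAT list, whose median is -0.73, and the medians of sensors and of interferon-stimulated genes are -0.02.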

How the data were processed

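RNA of DP thymocytes was measured in 1 WT and 1 *Cxxc1*-deficient mRNA-seq library, grouped by sample title. Per the submitters' processing notes and the methods, the authors used CASAVA 1.8.2 and Bowtie 1.0.1, with unique alignments of 50-base reads on mm9, and summarised genes in Partek Genomic Suite 6.6. What the authors deposited is a score per gene and library, normalized and rounded to whole numbers, whose unit and gene annotation are not given in the sources used here.

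Values under 1 were raised to 1 before ratios were taken, and 2-fold was the threshold. Lengths and loci came from GENCODE vM1 on NCBIM37. The size of 1 read was the step that best made the values of genes of 1 annotated length, from 100 to 900 bases, whole multiples within 0.55 value units. This held for 208 of 341 WT genes (46.4 expected from rounding) and 309 of 497 *Cxxc1*-deficient genes (65.8 expected). Reads of the IRF genes used the longest consensus coding transcript, and the authors' lengths are not known. Strand was not used, so antisense reads were not told apart.

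The members, gene lists and level classes were chosen with earlier results of these data known. Genes of the lists were named by their mean over both libraries (the 2 highest, or the 6 highest of lists over 11 genes) or, in lists of up to 11 genes, a change past 2-fold at a mean of at least 100. Alternatives were other scalings, pseudocounts of 1 and 10, subtraction of the olfactory receptor median, a filter at a mean of 50 and thresholds of 1.5-fold and 3-fold. The read size, intervals and fold calls were tested on simulated data. Those reads were drawn on the annotated lengths, so the effect of lengths that differ from the authors' was not tested. Protein sequences were not analysed here, and some genes of the family and lists are not reported here. Intervals came from scipy 1.17.1, tables from pandas 2.3.3 with numpy 2.4.6, and plots from matplotlib 3.10.9, under Python 3.11.15.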

Additional observations from a re-analysis of the deposited data

How the results depend on the processing

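Scaling the libraries moved all log2 ratios together. *Irf1* and *Irf9* were higher and *Irf3* lower in *Cxxc1*-deficient cells in all 8 scalings, pseudocounts and subtractions tried, with log2 ratios from 0.69 to 1.79 for *Irf1*, from 0.56 to 1.62 for *Irf9* and from -2.16 to -0.19 for *Irf3*. All scaling factors exceeded 1, and a pseudocount cannot turn a direction. For *Irf1* and *Irf9* only the subtraction could thus have turned it, and for *Irf3* also the scalings. *Irf2* ran from 0.07 to 1.07. As deposited, 2 IRF genes were lower and 5 higher, with 1 past 2-fold lower and 0 past 2-fold higher. At the same total 1 was lower and 7 higher, with 0 and 3 past 2-fold, while the median of all genes moved to 0.46. At the same 75th percentile and at equal sums that leave out the 100 most abundant genes, 0 were past 2-fold lower and 2 higher. With medians equalised over genes that average 100 or more, 1 was lower and 7 higher, with 0 and 5 past 2-fold, and the median log2 ratio of the receptor and JAK-STAT list was 0.27 in place of -0.73. These shifts follow from the factors of 1.31 to 2.0 applied to the *Cxxc1*-deficient library. After subtraction of the olfactory receptor median 2 were past 2-fold lower and 2 higher. At 1.5-fold 2 were past the threshold lower and 2 higher, and at 3-fold 0 were lower. Among the 4 IRF genes that average 50 or more, 1 was lower and 3 were higher. No paired analysis was possible because neither group holds more than 1 library. The reads behind *Irf3* (approximately 45 and 17) and *Irf1* (approximately 29 and 43) limit how precisely their ratios are known.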
